A study of Mus musculus with 6 samples.

Results

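The H3K27ac regions called in curcuphenol-treated A9 cells were set directly against those called in IFN-γ-treated A9 cells, without passing through the vehicle. For each of 26180 mouse genes with a curated RefSeq transcript, the base pairs covered by called regions were counted in the gene window, which is the gene body plus 1000 bp upstream, once in the curcuphenol list and once in the IFN-γ list. Of these genes, 15490 had a region in at least 1 of the 2 lists and were compared. A gene was counted as covered far more with 1 treatment when its window held at least 2000 bp more in that list and when the ratio of covered bp, with 500 bp added to each value, was at least 2. By this rule 752 genes (4.85% of 15490) were covered far more with IFN-γ and 481 genes (3.11%) far more with curcuphenol, and the other genes passed in neither direction.

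A9 is a metastatic mouse line derived from the transformed lung line TC1 and holds little MHC-I at its surface. Its cells received curcuphenol (0.00167 μmol), a plant and sponge phenol, or IFN-γ, or 1% DMSO as vehicle, starting 24 h after plating and lasting 48 h. Behind every treatment stand 1 library of H3K27ac and 1 of input, so no spread between replicates can be given, and no difference below was tested. The covered length says how far acetylation called above input extends over a gene, not how high it is. The depth of the libraries is unknown here.

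Acetylation of lysine 27 on histone H3 marks promoters and enhancers in use. IFN-γ binds a receptor that signals through the JAK1 and JAK2 kinases to factors that bind the gamma-activated sequence (GAS). IRF1 is induced in turn, and IRF factors bind the interferon-stimulated response element (ISRE). Genes reached in this way include the loading machinery of MHC-I, the transactivators NLRC5 and CIITA, the guanylate-binding proteins and the immunity-related GTPases. AP-1, made of FOS and JUN proteins, is a frequent occupant of enhancers in mesenchymal and transformed cells.

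The sequences below come from the RefSeq promoters (build GRCm38.p6, to which mm10 corresponds) and are shown because the immunity-related GTPases and the guanylate-binding proteins had the highest shares of genes covered far more with IFN-γ, with genes of the antigen processing and signalling lists beside them. They lie upstream of the gene's start on the gene's own strand, with GAS and ISRE matches in capitals. GAS was searched as TTCNNNGAA and ISRE as GAAANNGAAA, on both strands. In the immunity-related GTPase genes, GAS starts 11 bases before ISRE in each of the 4 promoters shown. The letters around the matches are alike in these related genes, so the 4 are not separate instances of the spacing. Promoters of Iigp1, Gm4951 and Irgm1, which also passed the rule, are not shown. The Tgtp1 stretch is chr11:48992299-48992349, that of Tgtp2 chr11:49064258-49064308, that of Igtp chr11:58199496-58199546 and that of Irgm2 chr11:58214887-58214937.
Tgtp1: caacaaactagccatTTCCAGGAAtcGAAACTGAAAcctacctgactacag
Tgtp2: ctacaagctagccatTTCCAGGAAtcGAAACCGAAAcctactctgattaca
Igtp: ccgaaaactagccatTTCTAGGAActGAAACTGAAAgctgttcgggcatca
Irgm2: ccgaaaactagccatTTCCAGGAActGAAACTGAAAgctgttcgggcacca

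In the guanylate-binding protein genes Gbp2, Gbp3 and Gbp7 the ISRE letters appeared on the other strand. Of their stretches only that of Gbp7 held GAS, whose search pattern reads the same on both strands. Promoters of Gbp4, Gbp5, Gbp6, Gbp8, Gbp10 and Gbp11, which also passed the rule, are not shown. The Gbp2 stretch is chr3:142620589-142620628, that of Gbp3 chr3:142559984-142560029 with 2 overlapping ISRE matches, and that of Gbp7 chr3:142530215-142530307 with 2 GAS matches before the ISRE. Psmb8 (chr17:34198083-34198121) and Irf1 (chr11:53769909-53769947) held a GAS match.
Gbp2: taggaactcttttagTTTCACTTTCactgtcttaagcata
Gbp3: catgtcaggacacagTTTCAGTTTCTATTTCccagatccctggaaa
Gbp7: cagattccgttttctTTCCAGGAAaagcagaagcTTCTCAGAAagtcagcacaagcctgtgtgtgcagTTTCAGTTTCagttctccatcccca
Psmb8: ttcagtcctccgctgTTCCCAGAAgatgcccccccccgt
Irf1: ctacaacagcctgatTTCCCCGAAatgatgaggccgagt

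Before the genes, the lists themselves differed in extent. The curcuphenol list holds 48763 regions over 70.3 Mb and the IFN-γ list 55622 regions over 81.1 Mb, beside 47899 regions over 69.8 Mb with DMSO. Regions of 5000 bp or more numbered 993 with curcuphenol, 1797 with IFN-γ and 1354 with DMSO. The part of this difference in extent in the gene counts was not tested, but its size can be seen from the median over all 15490 genes, a log2 ratio of IFN-γ over curcuphenol of 0.11, which became -0.05 when both lists were scaled to the same total. After scaling 478 genes passed far more with IFN-γ and 675 far more with curcuphenol, so the IFN-γ share of the calls went from 61.0% to 41.5%, and which treatment had more such genes depended on the scaling. No gene past the rule passed it in the other direction under any alternative. The gene just inside the rule for IFN-γ was 9230105E05Rik (433 bp with curcuphenol, 2433 bp with IFN-γ) and the gene just outside was Samd9l (1454 and 3449 bp). For curcuphenol they were Pdzd2 (2001 and 0 bp) and Cth (2828 and 843 bp). A window shorter than 2000 bp, which 539 of the compared genes have, cannot pass.

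A9 was checked against markers. All 9 mesenchymal markers had a region in at least 1 list, among them Vim, the mesenchymal intermediate filament, with 6240 bp under curcuphenol and 6704 bp under IFN-γ. Of 8 epithelial markers 2 had a region, Cdh1 and Krt8, of 6 lung epithelial markers 1, of 7 leukocyte markers 3 and of 5 endothelial markers 4. Among the markers without a region were Sftpc and Nkx2-1 of lung epithelium, Epcam of epithelium and Ptprc of leukocytes.

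**Figure D1:**
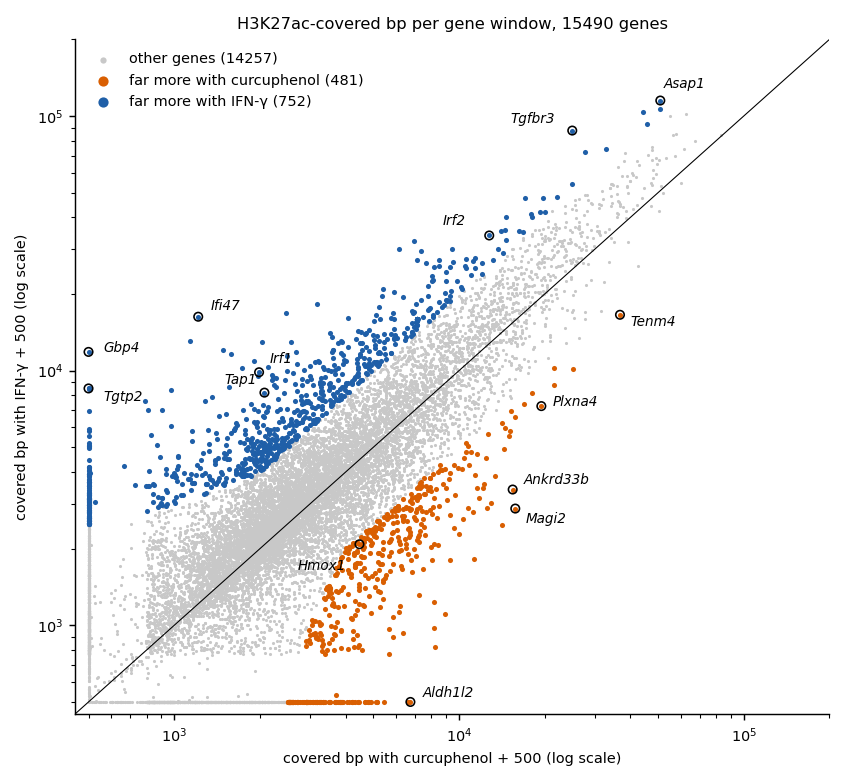
Covered bp of each gene window with curcuphenol (x axis) and with IFN-γ (y axis), each plus 500 bp, on log scales, for the 15490 genes with a region in either list. Each point is 1 gene from 1 library a side, the line marks equal coverage, the 752 genes far more covered with IFN-γ are blue, the 481 far more covered with curcuphenol are orange, and circled points are named.

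The question the comparison addresses is whether curcuphenol, studied as an inducer of antigen presentation, leaves the acetylation that IFN-γ leaves. In 7 lists of interferon and antigen presentation genes, 98 genes had a region, of which 40 (40.8%) passed the rule for IFN-γ against 4.85% of all genes, and 0 passed it for curcuphenol against 3.11% of all genes. More bp were covered with IFN-γ in 91 of the 98, with curcuphenol in 5, and 2 were equal. Over all 15490 genes, 9379 had more bp with IFN-γ and 5865 with curcuphenol, so IFN-γ was the commoner side in general. The median window of the 98 held 1541 bp with curcuphenol, 2040 bp with DMSO and 3476 bp with IFN-γ. Their median log2 ratio of IFN-γ over curcuphenol was 1.06, or 0.88 with equal totals, when 32 genes still passed.

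The guanylate-binding proteins, interferon-induced GTPases that act against pathogens in vacuoles, passed in 9 of 11 genes, with a median log2 ratio of 2.32. The window of Gbp4 (gene at chromosome 5, 105115767 to 105139586) was covered over 0 bp with curcuphenol, 2906 bp with DMSO and 11351 bp with IFN-γ. In Gbp7 the values were 1079, 2038 and 11176 bp, in Gbp2 1399, 2490 and 10435 bp, and in Gbp3 1232, 2802 and 9721 bp. In these 4 genes, all past the rule for IFN-γ, DMSO lay between the treatments and much nearer curcuphenol. A DMSO value between the treatments was common, in 627 of all 752 genes past that rule. Gbp5 (1476, 2037 and 6458 bp) had the same order, while in Gbp6 (2536, 2222 and 6669 bp) curcuphenol lay slightly above DMSO. The vehicle was not near curcuphenol throughout: Gbp8 had 517 bp with curcuphenol, 2497 bp with DMSO and 2702 bp with IFN-γ, and Gbp11 0, 3554 and 2002 bp, with DMSO the highest.

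The immunity-related GTPases, which attack the membrane of parasite vacuoles, passed in 7 of the 7 genes with a region, with a median log2 ratio of 2.68. Iigp1 was covered over 633 bp with curcuphenol, 4506 bp with DMSO and 12623 bp with IFN-γ. The whole window of Tgtp2 (8017 bp) was covered with IFN-γ, against 0 bp with curcuphenol and 1226 bp with DMSO. Tgtp1, its near-identical neighbour, had 477, 1476 and 7918 bp. Igtp had 1956 bp with curcuphenol, 1700 bp with DMSO and 8720 bp with IFN-γ, and Irgm1 3035, 4081 and 7176 bp. The GAS and ISRE pairs printed above for Tgtp1, Tgtp2, Igtp and Irgm2 thus lie in windows with 4 of these differences, Irgm2 having 2566 bp with curcuphenol, 1799 bp with DMSO and 5879 bp with IFN-γ. Reads in such gene families can match several copies, so a share of the regions may be placed on a paralog, and how multiply mapping reads were treated is not given in the sources used here.

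Of the MHC class I heavy chains and related molecules, 5 of 12 passed. H2-K1, a classical heavy chain that presents peptides to CD8 T cells, had 1544 bp with curcuphenol, 1983 bp with DMSO and 4004 bp with IFN-γ. H2-T23, the non-classical ligand of NKG2 receptors, had 534, 1297 and 3725 bp, H2-T22 1805, 1916 and 5385 bp, H2-M3, which presents formylated peptides, 1308, 1870 and 4391 bp, and H2-T24 0, 1492 and 2567 bp. The rule fixes the order of the treatments in these 5. DMSO lay between the treatments in all 5, as in 627 of the 752 genes past the rule for IFN-γ. Of the 12, 11 had more bp with IFN-γ and 1 with curcuphenol, H2-M10.1 (1497, 0 and 0 bp). H2-D1 (2141, 2610 and 4114 bp) and B2m (3850, 4042 and 5819 bp) were among those that did not pass. H2-T22, H2-T23 and H2-T24 form 1 locus, so their values are linked.

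Of the antigen processing genes, 3 of 15 passed: Tap1, a subunit of the peptide transporter, Psmb8, a catalytic subunit of the immunoproteasome, and Nlrc5, the transactivator of MHC class I genes. Tap1 was covered over 1574 bp with curcuphenol, 1757 bp with DMSO and 7700 bp with IFN-γ. The window of Psmb8, which lies beside Tap1, held 0, 689 and 2816 bp, and that of Nlrc5 783, 1726 and 7074 bp. At Tap1 the curcuphenol value lay close to DMSO, and IFN-γ stood apart from both. Over the 15 genes DMSO was above curcuphenol in 13 and below it in 2. One of the latter was Tap2, which did not pass (1643, 461 and 3037 bp). Over all compared genes DMSO was above curcuphenol in 7798 and below it in 7040. Over the genes of all 33 lists these counts were 335 and 164, so the lean was not particular to antigen processing. Of 10 MHC class II genes with a region 2 passed, Ciita, the class II transactivator (0 bp with curcuphenol, 0 bp with DMSO and 2261 bp with IFN-γ), and Cd74, the invariant chain (826, 0 and 4664 bp).

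Signalling genes passed in 8 of 17. Irf1 had 1486 bp with curcuphenol, but 8085 bp with DMSO and 9361 bp with IFN-γ, so its vehicle value lay near IFN-γ and the direct difference was mainly a low curcuphenol value. Irf2 had 12274, 17613 and 33467 bp, Stat3 5434, 7524 and 14018 bp, Jak1 4424, 7951 and 9505 bp, and Batf2, a partner of IRF1 in macrophages, 0, 0 and 2837 bp. The 10 genes of feedback on interferon signalling had a median log2 ratio of 0.44 and 0 passed in either direction. Antiviral effectors passed in 6 of 26, the largest difference being that of Ifit2, which binds viral RNA, with 4005, 9451 and 12384 bp, followed by Oasl2 with 2736, 2531 and 10296 bp.

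**Figure D2:**
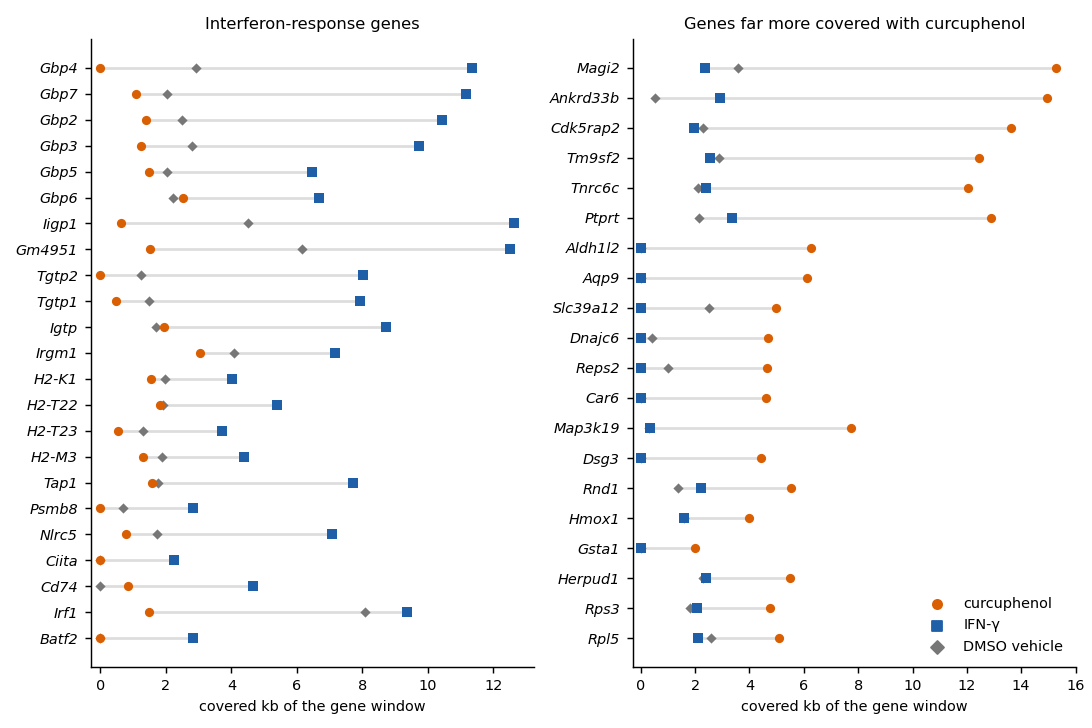
Covered kb of the gene window with curcuphenol (orange circles), IFN-γ (blue squares) and DMSO (grey diamonds, in places hidden behind another marker) for 23 interferon-response genes (left) and 20 genes past the rule for curcuphenol (right). 1 library per treatment. The genes on the left are all past the rule for IFN-γ. The order of circle and square is thus fixed by the choice of genes on both sides. On the right the vehicle lies at or near the IFN-γ value in most genes.

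Among the other immune lists, checkpoint ligands passed in 4 of 13: Cd47 (6368 bp with curcuphenol, 11287 bp with DMSO and 14873 bp with IFN-γ), Cd80 (2193, 3170 and 6487 bp), Vsir (2065, 3252 and 5805 bp) and Pdcd1lg2, which encodes PD-L2 (0, 2998 and 2001 bp). The apolipoprotein L genes passed in 3 of 6, with Apol6 at 0, 1595 and 8027 bp. The complement and acute phase list had the highest median log2 ratio outside the 7 interferon lists, 1.80, with C2 (0, 967 and 3023 bp), C3 (0, 372 and 2130 bp) and C1s1 (0, 656 and 2017 bp) past the rule. NF-κB genes passed in 5 of 16, among them Birc3, an inhibitor of apoptosis (1632, 2815 and 6720 bp), and Lif, a cytokine of the IL-6 family (6460, 6475 and 14329 bp).

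The largest differences towards IFN-γ in bp were at genes outside the interferon lists. Asap1, an Arf GTPase-activating protein of focal adhesions, had 50450 bp with curcuphenol, 79850 bp with DMSO and 114596 bp with IFN-γ. Tgfbr3, the betaglycan co-receptor for TGF-β, had 24498, 72457 and 87225 bp. Rgl1 had 43639, 75864 and 103590 bp, and Frmd4a 50330, 76508 and 105778 bp. Tead1, the DNA-binding partner of YAP, had 27156, 60665 and 71590 bp. In these 5 genes DMSO lay between the treatments, as in most genes past the rule for IFN-γ. In Tgfbr3, Rgl1 and Tead1 it lay nearer IFN-γ. Samd4, Ttc39b, Shb, Gramd4, Igf1r and Nfix were also among the 12 loci with the largest differences, at 25569 to 41461 bp more with IFN-γ.

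The vehicle divided the genes covered far more with IFN-γ. The DMSO value was nearer curcuphenol in 368 of the 752 genes and nearer IFN-γ in 384. Over all compared genes it was nearer IFN-γ in 58.1%. In the 7 interferon lists it was nearer curcuphenol in 33 of the 40, and in the 26 other lists in 28 of the 61. These genes were chosen for a high IFN-γ value, so a vehicle value nearer curcuphenol is in part built in. Single lists went either way, with DMSO nearer IFN-γ in 3 of 3 genes of the YAP, TAZ and TEAD list and 4 of 5 of the WNT list, and nearer curcuphenol in 3 of 3 of the apolipoprotein L and of the complement list and 3 of 5 of the extracellular matrix list. Yap1, the co-activator of TEAD factors, had 4600 bp with curcuphenol, 10530 bp with DMSO and 16089 bp with IFN-γ, and Dkk3, a secreted relative of WNT antagonists, 3031, 10063 and 13564 bp. Among sterol genes DMSO was nearer IFN-γ in 4 of 5: Abca1, the cholesterol exporter, had 1969, 11824 and 16320 bp. Notch2 had 17434 bp with curcuphenol against 41544 bp with DMSO and 40779 bp with IFN-γ, and Smg6, a nuclease of nonsense-mediated decay, 6465 against 36672 and 31852 bp. A direct difference towards IFN-γ therefore does not say by itself which treatment departed from the vehicle.

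Over the 26 other lists, 61 of 436 genes with a region passed for IFN-γ (14.0%) and 5 for curcuphenol (1.15%). Listed genes as a whole were thus called towards IFN-γ more often than the 4.85% of all genes, so the lists in general, not the interferon lists alone, lay above the background. The medians of the AP-1 list (0.06), the histone deacetylases (0.04), the acetyltransferases and bromodomain readers (0.08), the nuclear receptors (0.17), the ribosomal proteins (0.13), the lysosomal genes (0.16) and the oxidative stress list (0.01) were near that of all genes, and each turned negative with equal totals. Housekeeping genes had a median of 0.00 (-0.19 with equal totals) and 0 of 15 passed in either direction. Of the histone deacetylases 1 of 11 passed, Hdac7, with 6339 bp under curcuphenol, 11947 bp under DMSO and 13655 bp under IFN-γ. Kat2b, an acetyltransferase, had 4869, 14623 and 19188 bp.

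**Figure D3:**
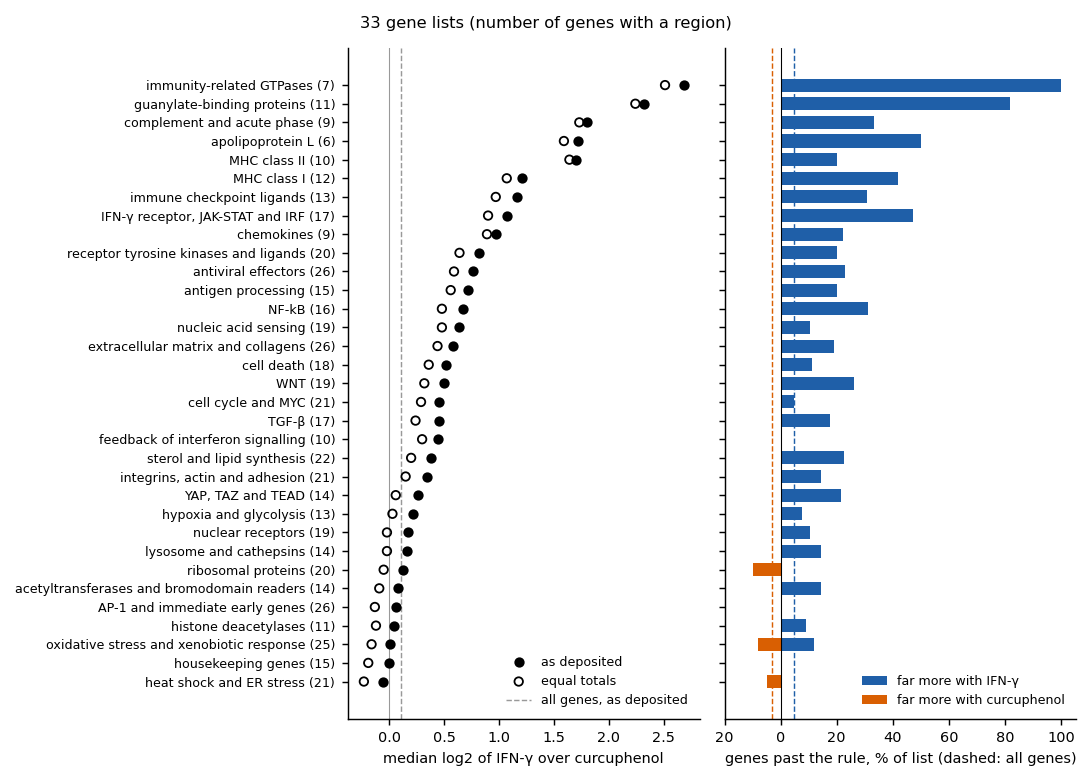
Median log2 ratio of covered bp, IFN-γ over curcuphenol with 500 bp added to each (left; filled as deposited, open with equal totals, dashed line all genes at 0.11), and share of each list's genes past the rule in each direction (right; dashed lines all genes at 4.85% and 3.11%), for 33 gene lists. Immunity-related GTPases and guanylate-binding proteins lie highest, heat shock and housekeeping genes lowest.

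The 481 genes covered far more with curcuphenol were of another kind. Their windows were long, with a median of 70007 bp against 39205.5 bp for the IFN-γ genes and 22989 bp for all compared genes, and in 44.5% of them the promoter had a region in neither list, against 19.3% of the IFN-γ genes and 17.1% of all. Of the 3873 shortest compared genes 0.594% passed for curcuphenol and 2.01% for IFN-γ, and of the 3873 longest 6.92% and 7.62%, so calls rose with gene length in both directions. Their median coverage was 4156 bp with curcuphenol, 1125 bp with IFN-γ and 1002 bp with DMSO. The vehicle was nearer IFN-γ in 456 of the 481 (94.8%, against 58.1% of all genes), and in 25 nearer curcuphenol. DMSO lay between the treatments in 286 of the 481 and below both in 190. Because the genes were chosen for a high curcuphenol value, a vehicle value nearer IFN-γ is in part built in.

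Tenm4, a teneurin adhesion receptor of neurons, had the largest difference, with 36272 bp under curcuphenol, 12596 bp under DMSO and 16079 bp under IFN-γ. Dip2c had 24626, 7213 and 9681 bp, and Plxna4, a semaphorin receptor subunit, 18969, 5326 and 6760 bp. Magi2, a synaptic scaffold, had 15269 bp with curcuphenol against 3583 and 2374 bp, with a region at its promoter in neither treatment. Ankrd33b had 14940, 518 and 2914 bp, Cdk5rap2, a centrosomal protein, 13608, 2273 and 1966 bp, Tm9sf2 12441, 2861 and 2529 bp, Tnrc6c, a partner of Argonaute proteins, 12054, 2110 and 2384 bp, and Ptprt, a receptor phosphatase, 12894, 2140 and 3356 bp. Curcuphenol lay above IFN-γ in these 9 genes by the rule, and it lay above DMSO as well. DMSO was nearer IFN-γ in all of them. In Csgalnact1 (21056, 14182 and 9743 bp) and D5Ertd615e (21060, 12088 and 8247 bp), also past the rule, DMSO lay well above IFN-γ.

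Some windows were covered with curcuphenol and not with IFN-γ. Aldh1l2, the mitochondrial folate enzyme, had 6252 bp with curcuphenol and 0 bp with both DMSO and IFN-γ, in 1 region that spans the start. Aqp9, a channel for water and glycerol, had 6100, 0 and 0 bp in 3 regions, 1 of them at the promoter. Car6 (4615 bp), a secreted carbonic anhydrase, and Dsg3 (4424 bp), a desmosomal cadherin, were also at 0 bp with DMSO and IFN-γ, while Slc39a12 had 4967, 2514 and 0 bp, Dnajc6 4671, 418 and 0 bp and Reps2 4651, 995 and 0 bp. The Aqp9 promoter (chr9:71162636-71162672, GRCm38.p6, minus strand) holds an AP-1 match, searched as TGANTCA and in capitals here.
Aqp9: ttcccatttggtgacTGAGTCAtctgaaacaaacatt

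Of the 33 lists, 5 genes passed for curcuphenol. Hmox1, heme oxygenase and a target of NRF2, had 3972 bp with curcuphenol, 1588 bp with DMSO and 1581 bp with IFN-γ, the last 2 nearly equal. Gsta1, a glutathione transferase, had 2011, 0 and 0 bp. Herpud1, a component of ER-associated degradation, had 5476, 2287 and 2388 bp. The ribosomal protein genes Rps3 (4747, 1801 and 2057 bp) and Rpl5 (5091, 2594 and 2107 bp) also passed, though 16 of the 20 ribosomal protein genes had more bp with IFN-γ. The oxidative stress list was mixed, with 2 of 25 genes past the rule for curcuphenol and 3 for IFN-γ: Ahr, the dioxin receptor (4767 bp with curcuphenol, 8513 bp with DMSO and 15527 bp with IFN-γ), Keap1 (2242, 2719 and 5721 bp) and Cyp1b1 (26, 1365 and 2557 bp).

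**Figure D4:**
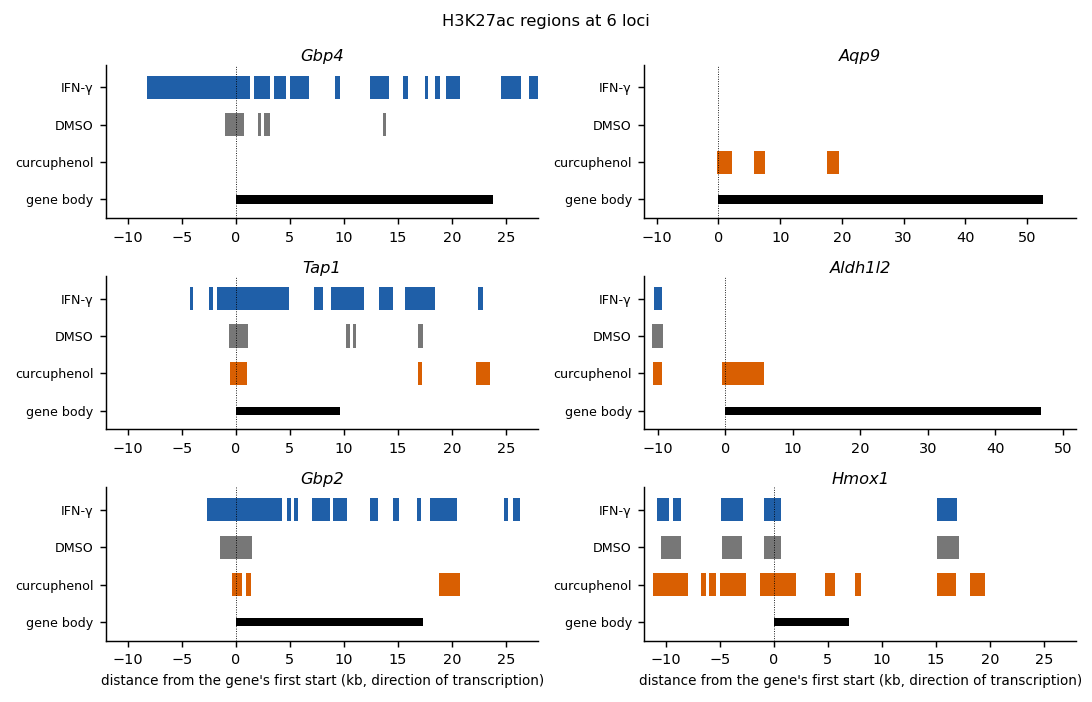
Called regions (bars) in the IFN-γ, DMSO and curcuphenol lists around 6 genes, by distance in kb from the gene's first start in the direction of transcription, with the gene body in black. Gbp4, Tap1 and Gbp2 (left) show wide regions over the start with IFN-γ; Aqp9 and Aldh1l2 (right) have regions over the start with curcuphenol alone, and at Hmox1 the curcuphenol regions are more numerous, and the one over the start is the widest of the 3 treatments.

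At promoters, taken as 1000 bp on either side of any start, 12889 genes had a region in either list and 11647 of them in both. A promoter region was found with IFN-γ and not with curcuphenol in 847 genes (6.57%), and with curcuphenol and not with IFN-γ in 395 (3.06%). A DMSO region lay at the promoter of 62% of the former and 15.4% of the latter. Most promoters with a region in the IFN-γ list alone were therefore also acetylated in the vehicle. The widest such region lay at Il34, a ligand of the CSF1 receptor, and spanned 35853 bp, followed by Ifi47 with 13097 bp, S100a5 with 11967 bp, Tgtp2 with 11557 bp, Ifitm5 with 10789 bp and Gbp5 with 10077 bp. With curcuphenol the widest lay at Gm15522 (6393 bp), Aldh1l2 (6252 bp), 1600010M07Rik (5814 bp), Snora28 (5489 bp), Mir7092 (5189 bp) and Rnd1 (5070 bp). A region counted when it touched the promoter, so much of its width can lie outside the gene window. Il34 did not pass the rule on the gene window, with 20496 bp under curcuphenol, 27046 bp under DMSO and 34427 bp under IFN-γ. Nor did Ifitm5 (0, 0 and 109 bp), Gm15522 (621, 0 and 0 bp), Snora28 (148, 1087 and 0 bp) and Mir7092 (1028, 0 and 0 bp). In 1600010M07Rik the 3 values were close (5814, 5392 and 5170 bp).

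The regions were also compared one by one. Of the curcuphenol regions 70.7% (exact 95% interval 70.2 to 71.1%) overlapped an IFN-γ region, and of the IFN-γ regions 63.0% (62.6 to 63.4%) overlapped a curcuphenol region, by at least 1 bp. Intervals here cover counting error only. The 14310 curcuphenol regions and 20602 IFN-γ regions without a counterpart were narrow, with medians of 593 and 522 bp against 1395 and 1415 bp for regions with one. A DMSO region overlapped 45.2% (44.5 to 45.8%) of the IFN-γ regions without a curcuphenol counterpart, but 9.75% (9.27 to 10.2%) of the curcuphenol regions without an IFN-γ counterpart. Both kinds were mainly distal: 1.45% of the curcuphenol and 2.40% of the IFN-γ regions lay at promoters, 48.3% and 52.8% in introns and 45.3% and 38.8% between genes.

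Sequence under these regions differed between the treatments. In the 300 bp around the centre, ISRE was present in 6.92% (6.57 to 7.27%) of the IFN-γ regions without a curcuphenol counterpart, in 3.82% (3.51 to 4.15%) of the curcuphenol regions without an IFN-γ counterpart, in 4.25% of IFN-γ regions with a counterpart and in 3.44% of 32851 RefSeq promoters of the same length. AP-1 went the other way, with 11.4% (10.9 to 11.8%) and 18% (17.3 to 18.6%), beside 17.9% of IFN-γ and 21% of curcuphenol regions with a counterpart and 7.81% of promoters. GAS, whose 9 letters with 3 free bases are short, did not separate them (9.34% and 9.68%, with 8.30% of promoters). The NRF2 core, TGACNNNGC, was present in 11.1% and 13.6%, and TEAD, GGAATG, in 16.8% and 16%. NF-κB (GGGANNTTCC, 1.20% and 0.943%), CRE (TGACGTCA, 0.194% and 0.280%), E-box (CACGTG, 3.72% and 4.68%), FOX (TGTTTAC, 4.13% and 4.18%), RUNX (TGTGGTT, 9.04% and 8.13%) and NFI (0.034% and 0%) were the other motifs of the 11 searched. An AP-1 match TGACTCA followed by GC is also a match of the NRF2 core.

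The ISRE share followed the width of the region with IFN-γ and not with curcuphenol. For IFN-γ regions without a counterpart it was 3.47% under 500 bp, 6.64% from 500 to under 1000 bp, 15.2% (14.0 to 16.4%) from 1000 to under 2000 bp and 16.3% (13.8 to 19.0%) at 2000 bp or more. For curcuphenol regions without a counterpart it was 3.70%, 4.19%, 3.61% and 3.26%, near the promoter share in every class. The AP-1 share was highest from 1000 to under 2000 bp in both, at 31.0% (29.4 to 32.7%) with curcuphenol and 18.5% (17.2 to 19.9%) with IFN-γ, and 28.7% and 14.8% at 2000 bp or more. Shared regions from 1000 to under 2000 bp held AP-1 in 27.7% (curcuphenol list) and 23.4% (IFN-γ list), and IFN-γ regions without a counterpart had the lowest share of the 4 sets in that class. Base composition moves with these groups: 15.1% of the curcuphenol and 8.11% of the IFN-γ regions without a counterpart had a GC content under 40%. Within each of 3 GC classes the order held for both motifs, with ISRE in 15.1%, 7.36% and 3.45% of IFN-γ regions from low to high GC and in 6.04%, 3.86% and 1.85% of curcuphenol regions.

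**Figure D5:**
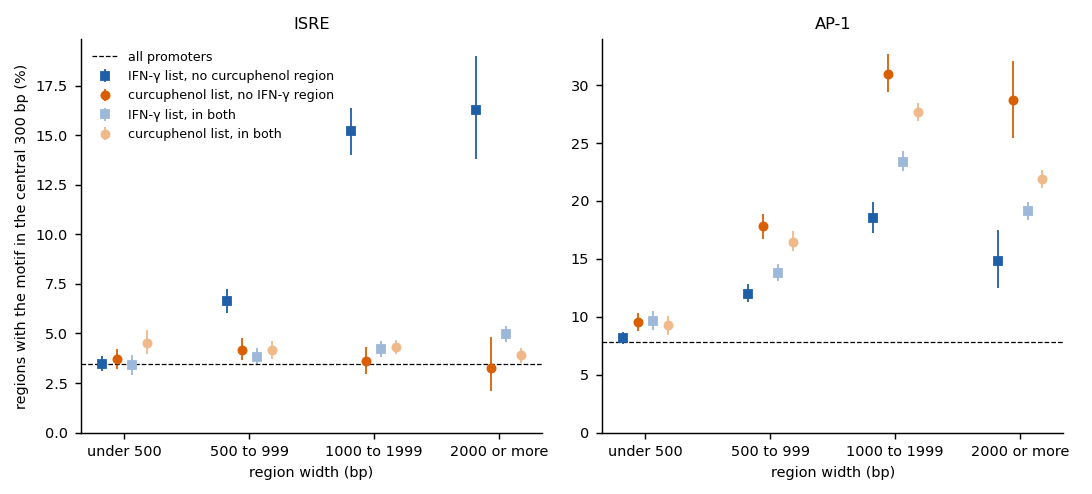
Share of regions with an ISRE (left) or AP-1 (right) match in the central 300 bp, by width of the region, for regions of each list with and without a counterpart in the other; bars are exact 95% intervals and the dashed line is the share of all RefSeq promoters of that length (3.44% and 7.81%). On the left the IFN-γ regions without a counterpart go from 3.47% to 16.3% with width, while the other 3 sets stay between 3.26% and 4.96%.

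Among the widest regions that carry these motifs, 4 of each kind are shown with the match in capitals, plus strand of mm10, named by the nearest gene start. For ISRE the widest is an IFN-γ region over the start of Gbp4 (9567 bp wide), with the site upstream of the start at chr5:105142878-105142937. The others are an intronic one near Gm12185 (5637 bp, chr11:48926380-48926439), an intergenic one near Trim30c (4077 bp, chr7:104402214-104402273) and an intronic one near Lysmd2 (3929 bp, chr9:75630891-75630950). All 4 overlapped a DMSO region and none a curcuphenol region. The Gbp4 and Trim30c matches lie in runs of pyrimidines or purines, the Lysmd2 match does not.
Gbp4: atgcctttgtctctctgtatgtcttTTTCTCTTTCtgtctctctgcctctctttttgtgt
Gm12185: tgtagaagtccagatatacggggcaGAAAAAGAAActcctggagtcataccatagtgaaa
Trim30c: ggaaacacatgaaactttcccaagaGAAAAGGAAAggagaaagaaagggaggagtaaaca
Lysmd2: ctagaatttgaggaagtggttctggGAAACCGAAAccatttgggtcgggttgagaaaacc

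For AP-1 they are intronic curcuphenol regions near Csrnp2 (4037 bp, site at chr15:100487233-100487289) and Atg14 (4001 bp, chr14:47557976-47558032), an autophagy gene, and Gm15880 (3717 bp, chr7:80654567-80654623), and a region at a transcript end near Abcc4 (3443 bp, chr14:118716463-118716519). None of these 4 overlapped a region of the DMSO or IFN-γ list. The gene windows of Csrnp2, Atg14 and Gm15880 held more bp with curcuphenol than with IFN-γ. That of Abcc4 held fewer, with 11528 bp under curcuphenol, 8638 bp under DMSO and 14246 bp under IFN-γ.
Csrnp2: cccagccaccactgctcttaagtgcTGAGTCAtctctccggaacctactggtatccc
Atg14: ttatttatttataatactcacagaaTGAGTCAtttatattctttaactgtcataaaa
Gm15880: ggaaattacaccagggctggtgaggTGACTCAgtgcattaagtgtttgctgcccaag
Abcc4: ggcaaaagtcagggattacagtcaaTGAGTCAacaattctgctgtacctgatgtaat

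In the loci with the largest differences in covered bp, the match nearest to the centre of the widest region without a counterpart was one of TEAD at Asap1 (chr15:64266557-64266612) and Tgfbr3 (chr5:107128685-107128740) and of AP-1 at Rgl1 (chr1:152601212-152601268) with IFN-γ. With curcuphenol it was one of AP-1 at Tenm4 (chr7:96176748-96176804), of TEAD at Dip2c (chr13:9296979-9297034) and of RUNX at Magi2 (chr5:19970465-19970521). All 6 lie in introns. None is an ISRE or GAS match.
Asap1: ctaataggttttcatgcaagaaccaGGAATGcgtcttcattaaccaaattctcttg
Tgfbr3: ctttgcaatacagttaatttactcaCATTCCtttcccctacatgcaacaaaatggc
Rgl1: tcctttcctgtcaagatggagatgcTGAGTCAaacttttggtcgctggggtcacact
Tenm4: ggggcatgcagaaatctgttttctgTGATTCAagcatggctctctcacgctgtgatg
Dip2c: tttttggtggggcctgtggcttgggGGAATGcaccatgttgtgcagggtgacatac
Magi2: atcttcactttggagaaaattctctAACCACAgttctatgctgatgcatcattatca

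At the RefSeq promoters themselves, 250 bases before to 50 after a start, sequences matched 550 of the 752 IFN-γ genes and 380 of the 481 curcuphenol genes. ISRE was present in 13 of 30 promoters (43.3%, 25.5 to 62.6%) of the interferon list genes past the rule for IFN-γ and GAS in 12 of 30, against 3.44% and 8.30% of all promoters. Over all genes of the 7 lists, past the rule or not, ISRE was present in 29 of 97 promoters (29.9%) and GAS in 22 of 97 (22.7%), so both motifs were frequent in these lists as a whole and not in the genes past the rule alone. In the other promoters of genes past the rule for IFN-γ the ISRE share was 4.76% (3.30 to 6.61%), and in those of the curcuphenol genes 3.39% (1.98 to 5.37%). Promoters with a region in the curcuphenol list alone held AP-1 in 11.9%, those with a region in the IFN-γ list alone in 7.68% and those with a region in both in 5.29%. For genes past the rule on the window the order was the other way, with AP-1 in 6.97% of promoters for curcuphenol and 8.56% for IFN-γ. A match of these letters is a description of the sequence and not evidence that a factor is bound.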

How the data were processed

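H3K27ac ChIPseq of A9 cells was analysed from the region lists the authors deposited for curcuphenol, IFN-γ and DMSO (1 H3K27ac library each, called against the input of the same treatment). Per the labels and the methods, paired reads were aligned to mm10 with BWA mem (0.7.17 in the submitters' processing notes, an earlier version in the methods) and regions called with MACS2 2.1.2 at an FDR of 0.01. The deposited values are start and end positions in bp, without scores, read counts or depth, so that a narrow or low region in 1 library may fall under the threshold in another. Duplicate and mapping filters are not given in the sources used here.

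Covered bp were computed with Python 3.11.15 over the 26180 genes with curated RefSeq transcripts (GRCm38.p6, 45754 transcripts). All regions lay within the chromosome lengths of that assembly. With 1 library a side there was no test and no p-value, and intervals are exact Clopper-Pearson. The members, lists and rules were chosen with earlier results of these data known. Genes were named by rule: in each direction the 12 loci with the largest difference, the next 8 by ratio, listed genes past the rule (6 per list), the 6 widest regions at promoters and the genes of the top bins. Some genes that these rules name are not reported here. Other named genes and the sequences of Tgtp1 to Aqp9 and of the widest motif regions were chosen after their values were seen. Overlap and coverage were tested on simulated data. Alternatives changed the window, pseudocount, thresholds, scaling, minimum width, joining of regions, motif window and GC class.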

Additional observations from a re-analysis of the deposited data

How the results depend on the processing

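The 752 genes for IFN-γ and 481 for curcuphenol became 1160 and 875 with a difference of 1000 bp, 375 and 144 with 4000 bp, and 295 and 258 with a ratio of 3. With equal totals they became 478 and 675. The window, the pseudocount, the minimum width, joining and coding transcripts kept both counts within 1.5 times. All 154 named genes kept their direction in all 1221 values under the alternatives, of which 130 were marked as changed in size. Most of these genes were chosen for a large difference, so a change of direction was unlikely from the outset. Of the values for the headline results, 33 were marked as changed and 29 as the same. The share of curcuphenol regions with an IFN-γ counterpart was 48.2% with a reciprocal overlap of 50%, 71.1% for regions of at least 500 bp, 72.0% with regions joined and 73.5% with extension by 1000 bp, and that of IFN-γ regions 42.3%, 67.2%, 68.3% and 69.1%. For regions without a counterpart, the ISRE share was 11.9% (IFN-γ) and 6.57% (curcuphenol) in 500 bp, and for IFN-γ 10% at 500 bp or wider, 15.1%, 7.36% and 3.45% by rising GC content and 6.55% in windows of under 50% repeats, with 6.04% and 1.85% at low and high GC for curcuphenol. The AP-1 share was 18.9% (IFN-γ) and 28% (curcuphenol) in 500 bp, 14.3% and 23.4% at 500 bp or wider, 10.2% and 16.6% at high GC, 11.9% for IFN-γ at middle GC, and 11.9% and 19.1% in windows of under 50% repeats, an alternative added after seeing the data. IFN-γ regions held more ISRE and curcuphenol regions more AP-1 in each of these. No paired analysis was possible because each treatment has 1 library. Without replicates, depth or scores, a difference in called bp cannot be told apart from a difference between libraries.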

Other observations

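The direct difference was uneven along the genome. Of 2453 bins of 1 Mb with a region, 57.5% had more covered bp with IFN-γ. Of the 5 bins with the largest differences towards IFN-γ, 4 lay on chromosome 7 from 112 Mb, with Tead1, Mical2 and Dkk3 (93073 bp with curcuphenol, 173424 bp with DMSO and 215046 bp with IFN-γ), on chromosome 15 from 77 Mb, with the apolipoprotein L genes (130564, 164197 and 220010 bp), on chromosome 2 from 167 Mb, with Ube2v1 and A530013C23Rik (134308, 146186 and 217509 bp), and on chromosome 18 from 60 Mb, with Iigp1, Gm4951, Cd74 and the podocyte actin regulator Synpo (79049, 126394 and 162213 bp). Towards curcuphenol the largest lay on chromosome 8 from 34 Mb (110307 bp with curcuphenol, 61662 bp with DMSO and 70738 bp with IFN-γ), in which 0 genes passed the rule, and on chromosome 7 from 96 Mb, with Tenm4 and Nars2 (48640, 18014 and 20651 bp). The 2 bins on chromosome 7 thus differed in opposite directions.

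By chromosome the ratio of covered bp, IFN-γ over curcuphenol, ran from 1.06 on chromosomes 13 and 18 to 1.23 on chromosome 11, leaving out Y (0.832 over 10531 bp with curcuphenol). Chromosome 18 had the low ratio together with the highest share of genes past the rule for IFN-γ, 9.54%, and chromosome 17, which carries the MHC, had 6.40% for IFN-γ and 1.60% for curcuphenol, the lowest share for curcuphenol of the autosomes. Among the genes past the rule for curcuphenol, the 25 whose vehicle value lay nearer curcuphenol included Robo2, an axon guidance receptor (6711 bp with curcuphenol, 7100 bp with DMSO and 1772 bp with IFN-γ), Cftr (7623, 5566 and 2408 bp) and Pmepa1, a TGF-β-induced inhibitor of SMAD signalling (6679, 6654 and 2745 bp).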
